A study of Mus musculus with 20 samples.

Results

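Type I interferon-stimulated genes are switched on together when a cell senses interferon, and 42 of them were followed here in intestinal epithelial cells of 5 mouse genotypes. The members were chosen as a named list, from the sensors Ddx58 and Ifih1 to effectors such as Isg15, the Ifit, Oas and Mx families and Rsad2. A probe was matched to a member by its gene symbol or, for older symbols, by its RefSeq accession. This found 41 of the 42 members (no probe matched Dtx3l) among the 21910 features tested in the series. All 41 were well above background on all 20 arrays, so no member was lost to the filter on dim probes. In 19 members several probes were present, and the probe with the highest mean signal stood for the gene.

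RNA came from epithelial cells detached with EDTA from the intestine of healthy 28-day-old mice, and each of the 20 mice was hybridised to its own one-colour Agilent array. There were 4 mice in each group: wild type, Trif LPS/LPS (genotype label Trif mut), Tlr3 KO, Tlr4 KO and MyD88 KO. All are labelled strain C57BBL6 and received no treatment. The labels give no gut region, sex, housing or origin of the mutant lines, and flow cytometry had found few CD45+ cells in such preparations, per the labels' protocols. TLR3 is a receptor for double-stranded RNA and signals through the adaptor TRIF, TLR4 binds lipopolysaccharide and uses both TRIF and MyD88, and MyD88 serves most other Toll-like receptors. The comparisons ask how gene expression of the resting epithelium differs in mice that lack each component or carry the Trif mutation.

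As background, type I interferons bind the receptor pair IFNAR1 and IFNAR2, and type III interferons bind IFNLR1 with IL10RB, which in the gut is used mainly by epithelial cells. Both receptors activate the kinases JAK1 and TYK2, which leads to assembly of the complex ISGF3, of which STAT2 and IRF9 are parts. This complex binds interferon-stimulated response elements, whose core is a pair of GAAA blocks, in the promoters of many interferon-stimulated genes. Several of the induced proteins feed back: IRF7 raises interferon transcription, and USP18 removes ISG15 from proteins and dampens the receptor.

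To show how these elements sit in the members, promoters from RefSeq (assembly GRCm38.p6) were searched for GAAA, 2 bases of any kind (NN) and GAAA again, on either strand, in the 250 bases before each gene's start. The table held an entry for 31 of the 42 members, and 9 of these 31 genes (29.0%) had a match, against 936 of all 27025 genes (3.46%). The matches lay in Isg15, Ifit1, Ifit3, Oas1a, Oas3, Rsad2, Bst2, Stat2 and Trim30a. The 150 bases before the start are printed for the 5 members whose match lay closest to it, with the matching letters in capitals (overlapping matches run together; TTTC blocks are the same motif on the other strand). Ifi44 and Ifitm3 follow, because they were lower in Trif mutants than in wild type, Tlr3 KO and Tlr4 KO alike and have no match in the window searched.
Isg15 (chr4:156200819-156200968, minus strand): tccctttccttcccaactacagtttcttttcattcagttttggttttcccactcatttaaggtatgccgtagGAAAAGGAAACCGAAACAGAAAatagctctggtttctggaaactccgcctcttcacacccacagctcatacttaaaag
Ifit1 (chr19:34640739-34640888, plus strand): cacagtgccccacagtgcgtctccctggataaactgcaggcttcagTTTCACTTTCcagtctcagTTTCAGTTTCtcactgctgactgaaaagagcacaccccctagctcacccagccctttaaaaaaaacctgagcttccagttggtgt
Oas1a (chr5:120907526-120907675, minus strand): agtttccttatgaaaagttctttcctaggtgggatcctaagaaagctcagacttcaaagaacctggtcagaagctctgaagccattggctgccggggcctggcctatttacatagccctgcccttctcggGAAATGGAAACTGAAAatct
Oas3 (chr5:120777660-120777809, minus strand): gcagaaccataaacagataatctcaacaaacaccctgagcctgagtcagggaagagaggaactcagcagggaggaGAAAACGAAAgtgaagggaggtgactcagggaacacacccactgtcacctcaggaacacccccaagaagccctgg
Trim30a (chr7:104465194-104465343, minus strand): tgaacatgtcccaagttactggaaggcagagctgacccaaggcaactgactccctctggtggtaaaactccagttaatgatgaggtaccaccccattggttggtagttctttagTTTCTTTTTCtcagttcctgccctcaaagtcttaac
Ifi44 (chr3:151749911-151750060, minus strand): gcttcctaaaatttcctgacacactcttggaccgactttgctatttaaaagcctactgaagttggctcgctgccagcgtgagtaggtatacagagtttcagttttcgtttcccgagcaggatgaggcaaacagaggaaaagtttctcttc
Ifitm3 (chr7:141010745-141010894, minus strand): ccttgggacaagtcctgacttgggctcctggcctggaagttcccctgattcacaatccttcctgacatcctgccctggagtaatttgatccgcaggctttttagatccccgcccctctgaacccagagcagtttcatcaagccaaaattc
Isg15 held 3 overlapping matches, the nearest 56 bases from the start. Oas1a held 2 at 4 bases or more from the start, Ifit1 held 2 on the opposite strand from 75 bases, Oas3 held 1 at 65 bases and Trim30a 1 at 26 bases. A match is a description of the letters and not evidence of binding.

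Levels below are log2 processed signal minus the array's 75th percentile, so a gene at 0 is as bright as that percentile. A difference is the first group's mean minus the second's (± SE, 4 mice in each group), with limma's p adjusted by Benjamini-Hochberg over all 21910 features, and a gene is said to have risen or fallen where that p was below 0.05. The share of probes well above background was 71.2% to 85.7% on the 4 MyD88 arrays and 65.1% to 73.6% on the other 16. Same-numbered wild type, Trif, Tlr3 and Tlr4 arrays shared 1 of 4 slides. The MyD88 arrays lay on slides of their own and were read on another scan day and scanner, which leaves scan and MyD88 genotype inseparable. The groups also differed in sex: Y-linked genes were brighter than Xist on all 4 MyD88 arrays, 3 Trif arrays, 1 Tlr3 array and 0 arrays of wild type and Tlr4 KO. All 9 epithelial markers, among them Epcam and Vil1, were well above background on all 20 arrays. Of the targeted genes, Tlr3 was above background on 0 of 4 Tlr3 KO arrays and on all 16 others (-7.02 ± 0.14, adjusted p = 1.1e-15, at least 29.1-fold lower), and Myd88 fell in MyD88 KO (-1.27 ± 0.11, adjusted p = 1.5e-06). Ticam1, which encodes TRIF, rose in Trif mutants (0.67 ± 0.13, adjusted p = 0.00055), and Tlr4 was above background on 2 of 20 arrays, neither of them wild type, so its level checks no label.

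The genotypes differed in the typical level of the programme. For each array the median was taken over the 41 members of the level minus that gene's mean over the 20 arrays. This median was 0.12, -0.01, 0.19 and 0.90 on wild type replicates 1 to 4, and 0.71, 0.72, 0.75 and 0.34 on the Tlr3 KO arrays. It was 0.00, -0.18, 0.21 and -0.18 on the Trif arrays, -0.43, -0.50, 0.22 and -0.10 on the Tlr4 KO arrays, and -0.74, -0.50, -0.56 and -0.83 on the MyD88 KO arrays. The 4 MyD88 arrays lay below all other arrays except Tlr4 KO replicate 2, which was level with the highest of them. Tlr3 KO had the highest mean of the 5 genotypes for 32 of 41 members (78%), against 19.3% of all features. MyD88 KO had the lowest mean for 33 of 41 (80.5%), against 20.3% of all features. With the MyD88 arrays set aside, Tlr4 KO was lowest for 24 members (58.5%, against 29.5% of all features) and Trif for 13 (31.7%, against 22.5%).

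**Figure D1:**
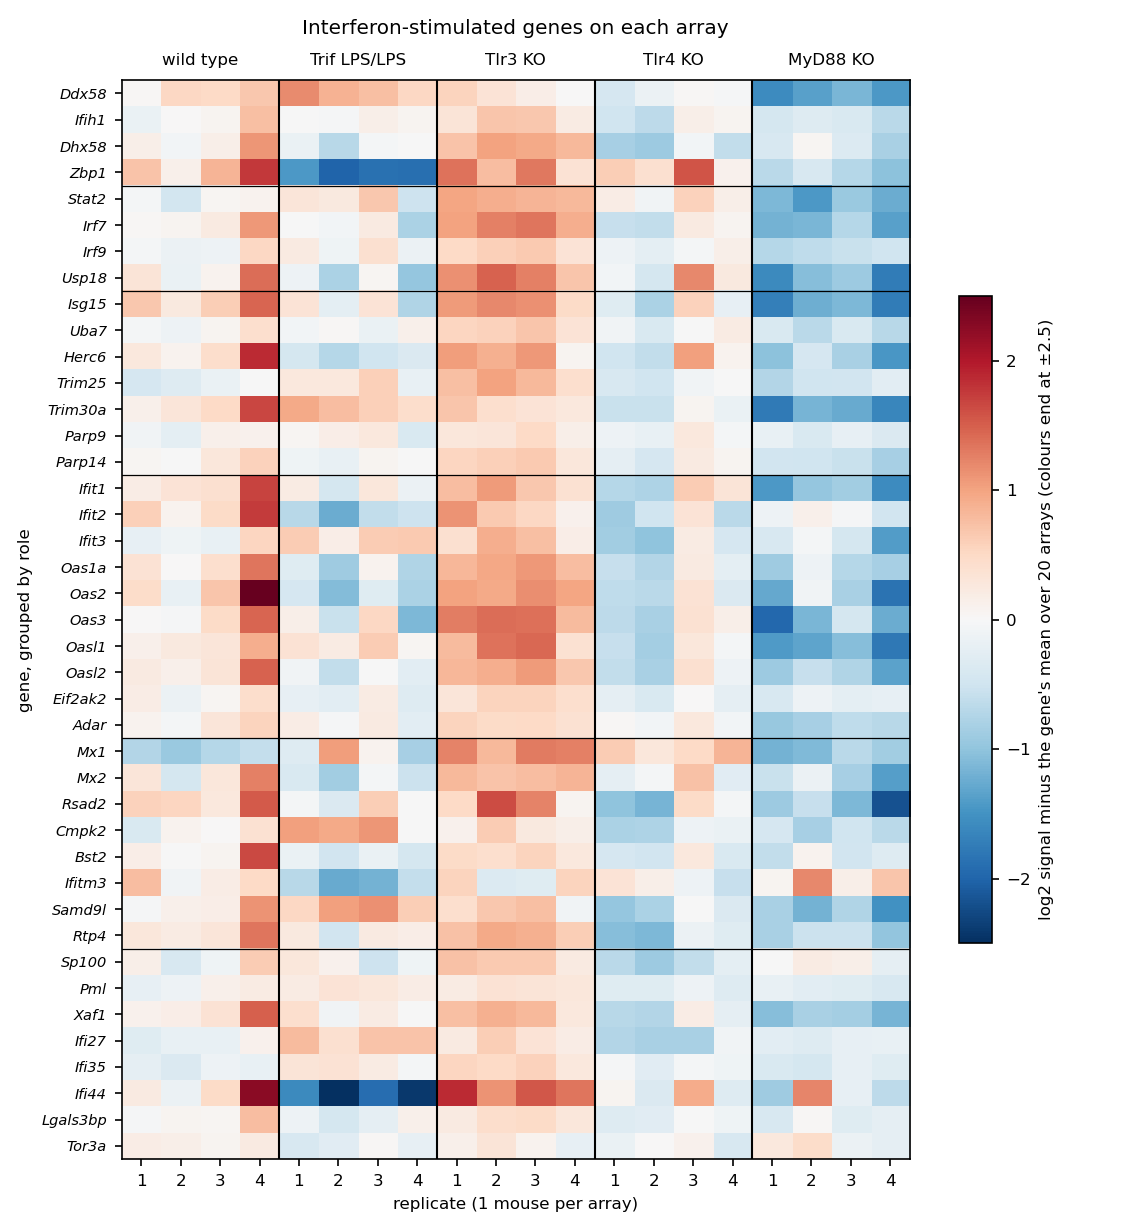
Log2 signal of the 41 measured members on the 20 arrays, each row minus its own mean over all arrays (red higher, blue lower; colours end at ±2.5), with columns grouped by genotype and rows by role. Wild type replicate 4 is red across most rows, the MyD88 KO columns are mostly blue, and Zbp1 and Ifi44 are deep blue in the 4 Trif columns.

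**Figure D2:**
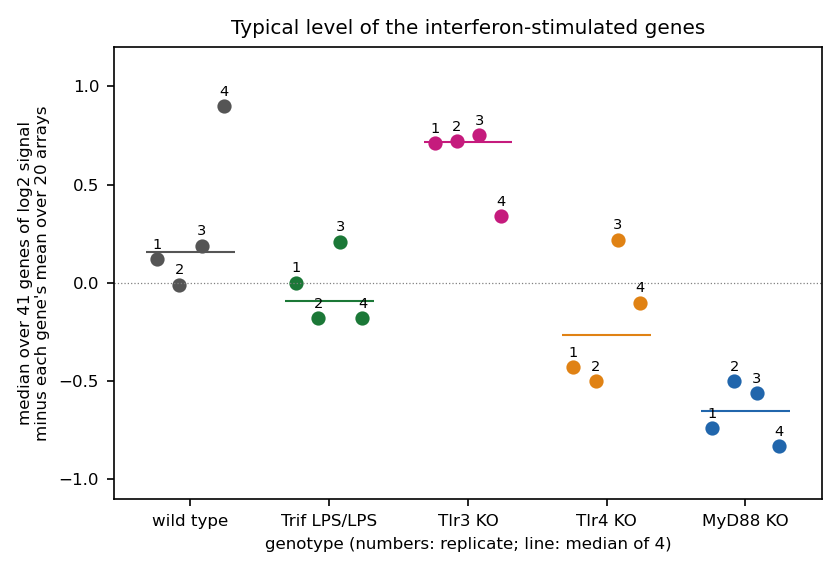
Median over the 41 members of the log2 signal minus each gene's mean over 20 arrays, 1 point per array with its replicate number, and a line at each genotype's median. Wild type replicate 4 lies at 0.90, the other wild type arrays between -0.01 and 0.19, the Tlr3 KO arrays between 0.34 and 0.75, and the MyD88 KO arrays between -0.83 and -0.50.

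Wild type replicate 4 stood apart, and the counts of every comparison with wild type are given with and without it. It was the highest wild type array for 38 of 41 members, against 22.8% of all features. Beside this, its median over 8 markers of leukocytes and T cells was 0.49 (the other wild type arrays -0.26 to -0.01). Over 4 genes listed as markers of plasmacytoid dendritic cells it was 0.07 (the others -0.82 to -0.61). These 4, called plasmacytoid markers below, were Siglech, Tcf4, Spib and Clec10a. Siglech was above background on few arrays (counted below), so the list does not by itself show such cells. Other immune markers were not raised on it. Its median over 5 B and plasma cell markers was -0.46 (the others 0 to 0.21), and over 7 myeloid markers -0.12 (the others -0.19 to 0.16). The part of these cells in the result was not tested, and in bulk samples fewer cells of a type and less RNA per cell cannot be told apart. Tlr4 KO replicate 3 was likewise the highest of its group for 33 of 41 members (23.2% of all features), and Tlr3 KO replicate 4 the lowest of its group for 31. The 4 comparisons with wild type share these arrays.

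In Trif mutants Ifi44, Zbp1 and several RNA-binding effectors lay below wild type, and Ifi27 lay above it. Of 41 members 11 fell and 6 rose, where 15.7% of all features fell and 28.6% rose (44.3% in either direction), so the share of members called was near that of all features and the share that rose was below it. The median difference was -0.37 over the members and 0.192 over all features. Ifi44 (7.13-fold) and Zbp1 (6.34-fold) were lowered most, and the RNA-binding effectors Oas2, Ifit2 and Oas1a were among those that fell. Under quantile normalization 14 fell and 2 rose, under median scaling 16 and 2, and after normexp background correction 8 and 2. Of all features 8739, 8007 and 5015 were then called in the same order.

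Among the sensors Zbp1, which recognises Z-form nucleic acid and can trigger necroptosis, lay at 1.37, 0.81, 0.95 and 0.93 on the Trif arrays and at 3.52, 2.95, 3.66 and 4.59 on the wild type arrays (probe at chr2:173032113-173032170, minus strand, mm9). The groups were apart by more than 1 log2 unit at their closest (-2.66 ± 0.33, adjusted p = 1.4e-05, 6.34-fold lower). The RNA sensors Ddx58, which encodes RIG-I (0.39), Ifih1, which encodes MDA5 (-0.12), and Dhx58, which encodes LGP2 (-0.56), did not pass. No member of the ISGF3 group passed: Stat2 was at 0.27, Irf7 at -0.51, Irf9 at 0.04 and Usp18 at -0.86.

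In the ISG15 system, Herc6, the mouse ligase that attaches ISG15, lay at -1.57, -1.84, -1.63 and -1.48 in Trif mutants and at -0.87, -1.03, -0.69 and 0.73 in wild type. All Trif arrays were below all wild type arrays (-1.17 ± 0.38, adjusted p = 0.02), by less on its other probe (-0.51). Isg15, the ubiquitin-like modifier itself, fell too (-0.83 ± 0.31, adjusted p = 0.038), and Trim25, a ligase that activates RIG-I, rose (0.46 ± 0.17, adjusted p = 0.034).

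Among RNA-binding effectors, Oas2, which makes the second messenger that activates RNase L, was at -1.30, -1.96, -1.18 and -1.67 in Trif mutants and at -0.42, -1.05, -0.18 and 2.02 in wild type. The groups did not overlap (-1.62 ± 0.49, adjusted p = 0.012). Ifit2, which binds viral RNA and limits its translation, was at -4.49, -5.03, -4.41 and -4.32 against -3.21, -3.72, -3.32 and -2.05. Its groups did not overlap either (-1.49 ± 0.32, adjusted p = 0.0012), but after normexp the difference was 0.02 (adjusted p = 0.97). Oasl2, an OAS-like protein, was at 3.54, 3.01, 3.60 and 3.36 against 3.85, 3.76, 3.95 and 5.10 (-0.79 ± 0.29, adjusted p = 0.033), again with no overlap. Oas1a fell as well (-0.997 ± 0.28, adjusted p = 0.0075).

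Among the other effectors Ifitm3, which blocks viral entry at endosomal membranes, was at 0.71, 0.15, 0.23 and 0.82 in Trif mutants and at 2.17, 1.32, 1.60 and 1.91 in wild type. Each Trif array lay below each wild type array (-1.27 ± 0.29, adjusted p = 0.002). Mx2 (-0.81 ± 0.31, adjusted p = 0.044) and the tetherin gene Bst2 (-0.79 ± 0.28, adjusted p = 0.032) fell, while Cmpk2, a mitochondrial nucleotide kinase (0.75 ± 0.24, adjusted p = 0.016), and the GTPase gene Mx1 (0.74 ± 0.27, adjusted p = 0.036) rose.

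Ifi44, a cytoplasmic protein of the antiviral response, had the largest difference of all members. It lay at -2.72, -3.73, -3.03 and -3.55 on the Trif arrays and at -0.91, -1.28, -0.65 and 1.13 on the wild type arrays (probe at chr3:151394035-151394094, minus strand, mm9). Every Trif array was below every wild type array (-2.83 ± 0.49, adjusted p = 2e-04, 7.13-fold lower), and its second probe differed by -2.43. Ifi27, a small mitochondrial and nuclear-envelope protein, went the other way, at 4.87, 4.47, 4.79 and 4.80 against 3.78, 3.89, 3.88 and 4.17 with no overlap (0.80 ± 0.15, adjusted p = 4e-04). Ifi35 (0.43) and Pml, the organiser of nuclear bodies (0.25), rose too (adjusted p = 0.0031 and 0.035).

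The arrays of Trif and wild type did not overlap for 11 members, 9 lower and 2 higher (38.4% of all features). The 24 members that did not pass ranged from -0.86 to 0.51. Without wild type replicate 4, 6 members fell and 8 rose (12 of the 14 also called with it; median -0.18; 40.5% of all features called). Isg15, Herc6, Oasl2, Mx2 and Bst2 then no longer passed (adjusted p = 0.082 to 0.17), and Ddx58 (0.48) and Samd9l (0.74) were added. Without Trif replicate 2, 9 members and 8377 of all features passed, Herc6 (adjusted p = 0.052) and Oasl2 not among them. Oasl2 did not pass without Trif replicate 4 either (its range 0.056 to 0.13). Zbp1, Ifi44, Oas1a and Ifi27 passed in each of the 17 other settings tried. Of the genes that rose, Trim25, Pml and Mx1 each passed in 7 of 17: Trim25 was lost without any of Trif replicates 1 to 3 or wild type replicates 1 and 2 (adjusted p = 0.062 to 0.12) and Pml without any of wild type replicates 1 and 2 and Trif replicates 2 and 3 (0.07 to 0.13). Within the 4 slides the member median was -0.02, -0.16, -0.05 and -0.86. With sex as a covariate 6 members fell and 1 rose, with 5843 of all features called. Ifitm3 (adjusted p = 0.087), Herc6, Oas2 and Oasl2 were among those that did not pass. Beside these values, 8 of 9 epithelial markers were higher in Trif mutants (median 0.46), 3 of 7 myeloid markers lower and 1 higher (median -0.09), 1 of 5 B and plasma cell markers lower (median -1.34), and 2 of 4 plasmacytoid markers higher (median 0.68; 1.14 without wild type replicate 4), with Siglech above background on 5 arrays in all; their part in the result was not tested.

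**Figure D3:**
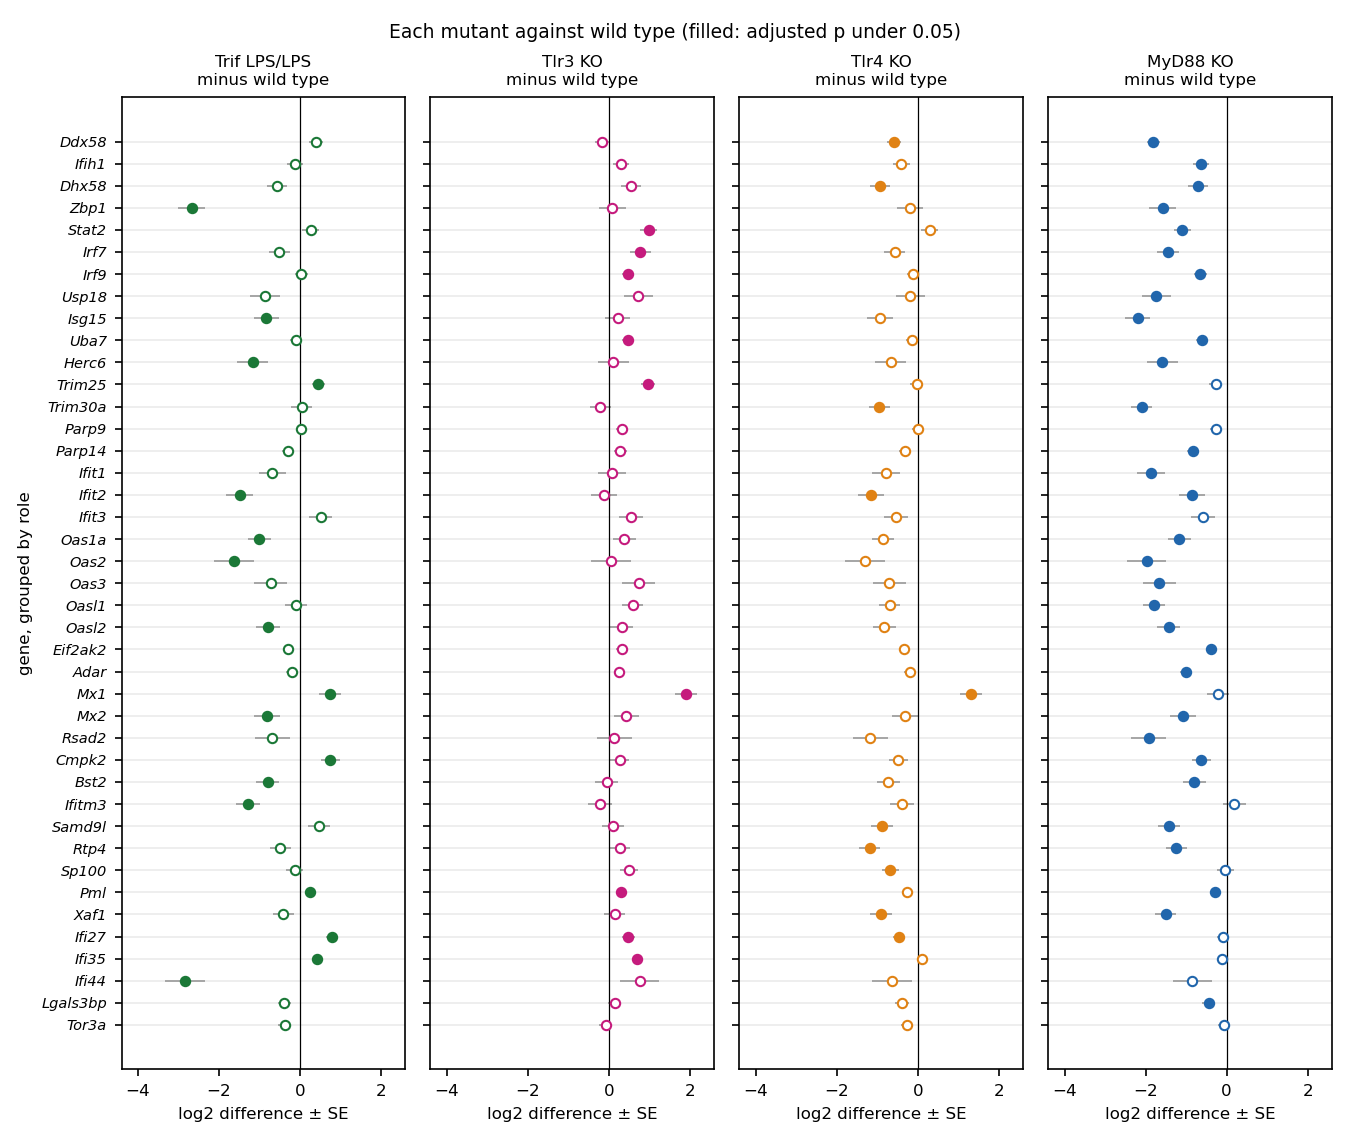
Difference in mean log2 signal from wild type for each of the 41 members (± SE, 4 mice per group) in the 4 mutants, filled where the adjusted p was under 0.05. Trif differences run from -2.83 to 0.80, filled Tlr3 points all lie above 0, and all 31 filled MyD88 points lie below 0.

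In Tlr3 KO mice Mx1, Stat2, Trim25 and Ifi35 lay above wild type under every setting tried, and no member fell. Of 41 members 9 rose, where 24.8% of all features rose and 13.8% fell (38.6% in either direction), so the share of members called was below that of all features. The median difference was 0.30 over the members and 0.218 over all features. Mx1 rose most, followed by Stat2 and Trim25.

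Stat2, the ISGF3 subunit that carries its main activation domain, lay at 2.20, 2.12, 2.07 and 2.03 on the Tlr3 KO arrays and at 1.17, 0.77, 1.26 and 1.31 on the wild type arrays (probe at chr10:127729181-127729240, plus strand, mm9). The lowest KO array was above the highest wild type array (0.98 ± 0.20, adjusted p = 0.0014, 1.97-fold). The DNA-binding subunit Irf9 (0.47 ± 0.15, adjusted p = 0.021) and Irf7 (0.78 ± 0.26, adjusted p = 0.025) rose with overlapping arrays, and Usp18 did not pass (0.73 ± 0.36).

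Trim25 lay at 4.92, 5.17, 4.97 and 4.59 against 3.76, 3.86, 4.01 and 4.15, without overlap (0.97 ± 0.17, adjusted p = 0.00037). Uba7, the enzyme that activates ISG15 for conjugation, rose (0.46 ± 0.14, adjusted p = 0.015), whereas Isg15 itself was at 0.22 ± 0.31 (adjusted p = 0.59). None of the 10 RNA-binding and RNA-modifying effectors passed, with Oas3 at 0.74 and Oasl1 at 0.59 the furthest from 0.

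Mx1 lay at -1.44, -1.86, -1.39 and -1.43 in Tlr3 KO and at -3.42, -3.61, -3.39 and -3.28 in wild type (probe at chr16:97669616-97669675, minus strand, mm9). The groups were separated by more than a log2 unit (1.89 ± 0.27, adjusted p = 6.9e-05, 3.72-fold), and its second probe differed by 1.69. Ifi35 lay at 4.24, 4.21, 4.28 and 3.97 against 3.48, 3.34, 3.57 and 3.53 (0.70 ± 0.10, adjusted p = 0.00011). Ifi27 was at 4.29, 4.69, 4.41 and 4.27 against the wild type values given above (0.48 ± 0.15, adjusted p = 0.018), and Pml at 1.46, 1.61, 1.57 and 1.54 against 1.05, 1.12, 1.38 and 1.46 (0.29 ± 0.09, adjusted p = 0.021). For all of these the KO arrays lay above every wild type array, though for Pml by almost nothing (lowest KO and highest wild type array both 1.46).

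The Tlr3 KO and wild type arrays did not overlap for 7 members, all higher (40.1% of all features). The 32 members that did not pass ranged from -0.22 to 0.76. Without wild type replicate 4, 19 members rose, including the same 9 (median 0.51; 21.7% of all features rose). The additions were Ifih1, Dhx58, Usp18, Parp14, Oas3, Oasl1, Eif2ak2, Adar, Sp100 and Ifi44, with Ifi44 at 1.28 and Oas3 at 1.07. Without wild type replicate 1 or 2, or Tlr3 KO replicate 2 or 3, 5 members rose (6540, 7718, 6646 and 6916 of all features called). Pml did not pass without any of these 4 arrays (adjusted p = 0.052 to 0.086). Ifi27 did not pass without wild type replicate 1 or Tlr3 KO replicate 2 (0.057 and 0.068). Irf7 and Irf9 each passed in 9 of 17 other settings, and neither passed without any of wild type replicates 1 to 3 or Tlr3 KO replicates 2 and 3 (adjusted p = 0.054 to 0.082 for Irf7 and 0.056 to 0.064 for Irf9). Within the slides the member median was 0.54, 0.75 and 0.59 on slides 1 to 3 and -0.48 on slide 4, which carries wild type replicate 4. Under median scaling 4 members rose, with 6991 of all features called. The median over the 41 members was then 0.07, against -0.0172 for all features. Mx1, Stat2, Trim25 and Ifi35 passed in each of the 17 other settings tried. Beside these values, 7 of 9 epithelial markers were higher in Tlr3 KO (median 0.51), as was 1 of 8 leukocyte and T cell markers (median 0.21; 2 and 0.41 without wild type replicate 4), and of 7 myeloid markers 2 were lower and 1 higher; their part in the result was not tested.

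In Tlr4 KO mice Rtp4 and a few sensors and effectors lay below wild type, and Mx1 lay above it. Of 41 members 9 fell and 1 rose, where 3.12% of all features fell and 9.57% rose (12.7% in either direction). The median difference was -0.53 over the members and 0.0111 over all features. The numbers pair wild type and Tlr4 KO arrays. With the replicate number as a block 3 members fell and 1 rose, where 2924 of all 21910 features were called in either direction. The share of members called was then below that of all features. Of these 3 falls 1 was not among the 9 above. Of the 9 falls only Rtp4 (adjusted p = 0.0084) and Dhx58 (0.015) held under the block, and Ddx58, Trim30a, Ifit2, Samd9l, Xaf1, Sp100 and Ifi27, described next from the fit without it, did not (0.053 to 0.085).

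Ddx58 lay at 0.30, 0.57, 0.75 and 0.69 in Tlr4 KO and at 0.76, 1.24, 1.23 and 1.40 in wild type. The groups came within 0.02 of each other without overlapping (-0.58 ± 0.17, adjusted p = 0.027), and its 3 other probes gave 0.01, -0.23 and -0.63. Dhx58 fell with overlapping arrays (-0.94 ± 0.25, adjusted p = 0.017). Trim30a, a regulator of NF-kappaB signalling, lay at -0.34, -0.33, 0.28 and 0.05 against 0.34, 0.51, 0.71 and 1.89, again without overlap (-0.95 ± 0.26, adjusted p = 0.023).

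Rtp4, a chaperone for receptors at the cell surface, had the largest difference among those that fell. It was at 2.68, 2.63, 3.60 and 3.44 on the Tlr4 KO arrays and at 4.02, 3.94, 4.05 and 5.07 on the wild type arrays (-1.19 ± 0.26, adjusted p = 0.0046, 2.28-fold lower). Mx1 lay at -2.04, -2.39, -2.19 and -1.83, above all wild type arrays (1.31 ± 0.27, adjusted p = 0.003, 2.48-fold), and its second probe differed by 1.19. Ifit2 (-1.15), Samd9l (-0.88), Xaf1 (-0.91), Sp100, a partner of PML in nuclear bodies (-0.68), and Ifi27 (-0.47) fell as well, with overlapping arrays.

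The Tlr4 KO and wild type arrays did not overlap for 4 members (20.6% of all features), and the 31 members that did not pass ranged from -1.29 (Oas2) to 0.29. Without wild type replicate 4, Rtp4 and Mx1 alone passed (median -0.33; 9.5% of all features called), and Ddx58, Dhx58, Trim30a, Ifit2, Samd9l, Sp100, Xaf1 and Ifi27 did not (adjusted p = 0.053 to 0.17). Without Tlr4 KO replicate 1 or 2 there were 2 calls and without wild type replicate 3 there were 6. Ddx58 did not pass without wild type replicate 2 or 3 either (adjusted p = 0.059 to 0.099 over the arrays whose removal ended its call). After normexp 1 member fell and 1 rose, with 672 of all features called. Within the slides the member median was -0.46, -0.52, -0.03 and -1.02. Rtp4 and Mx1 passed in each of the 17 other settings tried. Beside these values, 1 of 8 leukocyte and T cell markers was lower and 0 were higher in Tlr4 KO (median -0.57; 0 called and -0.34 without wild type replicate 4), and no epithelial marker passed (median 0.19); their part in the result was not tested.

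In MyD88 KO mice most of the programme lay below wild type. Of 41 members 31 fell and 0 rose, where 12.3% of all features fell and 37.2% rose (49.5% in either direction). The median difference was -0.85 over the members and 0.307 over all features. Falls of more than 3-fold were seen for Isg15, Trim30a, Rsad2, Ifit1, Ddx58, Oasl1, Usp18, Oas3, Herc6 and Oas2. Scan and genotype cannot be told apart here, nor can sex, since all 4 MyD88 arrays and 0 wild type arrays had Y-linked signal above Xist.

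All 4 sensors fell. Ddx58 lay at -0.84, -0.62, -0.42 and -0.71 in MyD88 KO, more than a log2 unit below the lowest wild type array (-1.81 ± 0.17, adjusted p = 2.6e-06), with -0.41, -1.16 and -1.22 on its other probes. Zbp1 (-1.57), Dhx58 (-0.71) and Ifih1 (-0.63, other probe -1.99) followed.

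All 4 members of the ISGF3 group fell too. Usp18 was at -0.07, 0.46, 0.62 and -0.22 in MyD88 KO and at 1.84, 1.35, 1.62 and 2.92 in wild type, with no overlap (-1.74 ± 0.36, adjusted p = 0.0012). Irf7 (-1.45 ± 0.26, adjusted p = 0.00039), Stat2 (-1.09 ± 0.20, adjusted p = 0.00051) and Irf9 (-0.65 ± 0.15, adjusted p = 0.0025) also had no overlapping arrays.

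Isg15 had the largest fall of all members. It lay at 0.57, 1.07, 1.15 and 0.54 in MyD88 KO and at 2.95, 2.53, 2.90 and 3.73 in wild type (probe at chr4:155573922-155573981, minus strand, mm9). The highest KO array was more than a log2 unit below the lowest wild type array (-2.19 ± 0.31, adjusted p = 6.5e-05, 4.58-fold lower). Trim30a was at -1.56, -0.93, -1.05 and -1.41, likewise below all wild type arrays (-2.10 ± 0.26, adjusted p = 2.6e-05, other probe -1.37). Herc6 (-1.59), Parp14 (-0.82; other probes -0.54 and -2.07) and Uba7 (-0.61) fell, while Trim25 (-0.27) and Parp9 (-0.26) did not pass.

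Of the 10 RNA-binding and RNA-modifying effectors 9 fell. Ifit1, which recognises RNA lacking the host cap, was at 0.20, 0.68, 0.77 and 0.06 against 1.82, 1.98, 2.05 and 3.33 (-1.87 ± 0.34, adjusted p = 0.00044). Oasl1, a repressor of Irf7 translation, was at 1.79, 1.90, 2.14 and 1.43 against 3.34, 3.46, 3.53 and 4.12 (-1.79 ± 0.27, adjusted p = 9.1e-05). Oas3, which senses long double-stranded RNA, was at -1.81, -0.99, -0.27 and -1.07 against 0.16, 0.12, 0.63 and 1.61 (-1.67 ± 0.40, adjusted p = 0.0032). In these 3 genes every KO array lay below every wild type array. Oas2 (-1.97), Oasl2 (-1.43), Oas1a (-1.17), the RNA-editing enzyme Adar (-1.01; other probe -0.31), Ifit2 (-0.85) and the kinase gene Eif2ak2, which encodes PKR (-0.38), completed the group, and Ifit3 did not pass (-0.58 ± 0.29).

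Rsad2, which encodes viperin, was at -1.37, -1.02, -1.57 and -2.62 in MyD88 KO and at 0.12, 0.09, -0.20 and 1.08 in wild type, with no overlap (-1.92 ± 0.43, adjusted p = 0.0018). Samd9l (-1.41), Rtp4 (-1.25), Mx2 (-1.08), Bst2 (-0.80) and Cmpk2 (-0.63) fell. Mx1 (-0.21) and Ifitm3 (0.19) did not pass. Of the nuclear body and other induced genes, Xaf1 (-1.51), Lgals3bp (-0.44) and Pml (-0.29) fell, and Ifi44, the gene furthest from wild type in Trif mutants, was at -0.84 ± 0.49 (adjusted p = 0.16).

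The MyD88 KO and wild type arrays did not overlap for 23 members, all lower (41.9% of all features). The 10 members that did not pass ranged from -0.84 to 0.19. Without wild type replicate 4, 23 members fell, all of them among the 31 (median -0.70; 10.1% of all features fell). Ifih1, Dhx58, Ifit2, Eif2ak2, Cmpk2, Bst2, Pml and Lgals3bp then did not pass (adjusted p = 0.064 to 0.15), and 18 members passed in each of the 18 other settings tried. After normexp 22 members fell, and with sex as a covariate 25 (2838 and 7165 of all features called in either direction). None of these settings separates scan or slide from genotype. Beside these values, 5 of 5 tested stromal and endothelial markers (median 0.60), 4 of 7 myeloid markers (median 0.57), 3 of 5 B and plasma cell markers (median 1.03) and 5 of 9 epithelial markers (median 0.24) were higher in MyD88 KO, with 3 of 5 stromal and 3 of 7 myeloid markers higher without wild type replicate 4. Pecam1 was above background on 5 and Cdh5 on 2 of 20 arrays. The part of these cells in the result was not tested.

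**Figure D4:**
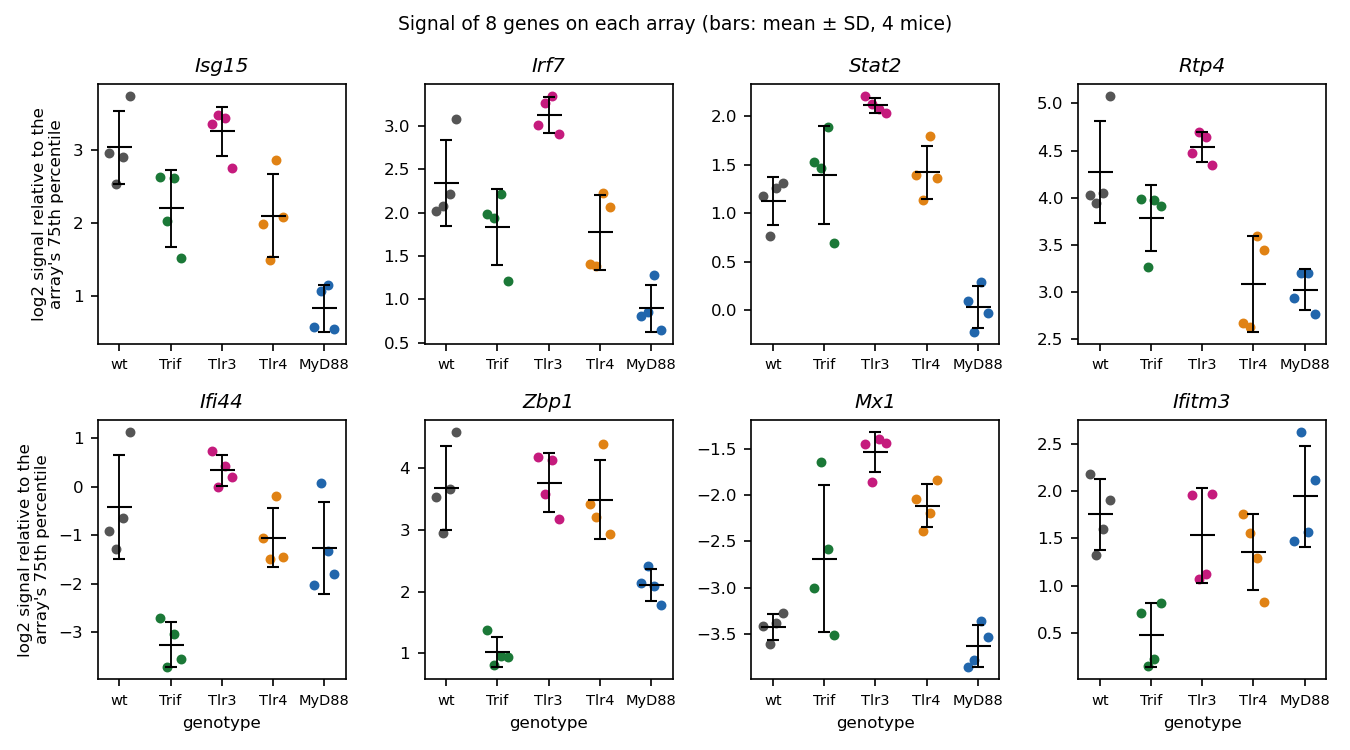
Log2 signal relative to the array's 75th percentile for 8 members on each array, grouped by genotype (points: mice; bars: mean ± SD of 4). Isg15, Irf7 and Stat2 are lowest in MyD88 KO, Ifi44, Zbp1 and Ifitm3 are lowest in Trif mutants, and Mx1 is lowest in MyD88 KO and wild type.

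The mutants that shared slides were compared with each other directly, which leaves the wild type arrays out of the differences in means. The SE and adjusted p still drew on the spread within all groups, wild type and MyD88 KO included. With only the 2 genotypes compared in the fit, 21 members were called for Trif against Tlr3, 10 for Trif against Tlr4 and 32 for Tlr3 against Tlr4. Of all features 2920, 7691 and 6993 were then called in the same order. Against Tlr4 KO, Tlr3 KO had higher levels across the programme: 30 of 41 members were higher and 0 lower, where 17.3% of all features were higher and 13.4% lower (30.7% in either direction). All 41 differences were above 0 (median 0.78, all features 0.193). The Tlr3 and Tlr4 arrays did not overlap for 25 members (31.6% of all features), and on each of the 4 slides 38 to 41 members were higher (medians 1.15, 1.41, 0.54 and 0.45).

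Dhx58 differed most between Tlr3 and Tlr4 KO, at 1.08, 1.38, 1.32 and 1.19 against -0.46, -0.53, 0.31 and -0.25 (1.47 ± 0.25, adjusted p = 0.0012). The groups were separated, as they were for Rtp4, at 4.47, 4.69, 4.64 and 4.35 in Tlr3 KO (1.45 ± 0.26, adjusted p = 0.0017), and Irf7, at 3.00, 3.26, 3.34 and 2.90 against 1.41, 1.39, 2.23 and 2.06 (1.35 ± 0.26, adjusted p = 0.0027). Oas3 (1.44), Ifi44 (1.39), Oasl1 (1.28), Oas1a (1.25), Sp100 (1.18) and Isg15 (1.15) were also higher. Of these Ifi44 passed in 6 of 17 other settings and was lost without any 1 of the 8 arrays but Tlr4 KO replicate 3 (adjusted p = 0.056 to 0.12), and Isg15 and Oas3 did not pass without Tlr4 KO replicate 2 (0.054 and 0.059). The values for Zbp1 (0.27), Ifitm3 (0.17) and Mx1 (0.58) did not pass. Without Tlr4 KO replicate 2, 16 members were higher, and without Tlr3 KO replicate 2, 19 (3366 and 3511 of all features called in either direction). Beside these values, 5 of 8 leukocyte and T cell markers were higher in Tlr3 KO (median 0.90), with per-array medians of -0.43 to 0.79 in Tlr3 KO and -0.82 to -0.15 in Tlr4 KO; 5 of 9 epithelial markers were higher (median 0.31) and of 7 myeloid markers 1 was higher and 2 lower; their part in the result was not tested.

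TLR3 signals through TRIF, and the mutants of receptor and adaptor were compared on the same slides. Against Tlr3 KO, Trif mutants had 24 of 41 members lower and 1, Ddx58 (0.56; other probes -0.08, 0.48 and -0.36), higher, where 10.1% of all features were lower and 10.2% higher (20.2% in either direction). The median difference was -0.68 (all features -0.0543), and within the 4 slides it was -0.55, -0.89, -0.67 and -0.53. The Trif and Tlr3 arrays did not overlap for 24 members, all lower in Trif mutants (22.9% of all features).

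Ifi44 differed most between these mutants, with Tlr3 KO arrays at 0.73, -0.01, 0.42 and 0.20 (-3.59 ± 0.49, adjusted p = 1e-04, 12.1-fold lower in Trif mutants). Zbp1, at 4.17, 3.57, 4.13 and 3.17 in Tlr3 KO, was next (-2.75 ± 0.33, adjusted p = 3.5e-05). All 4 members of the ISGF3 group had negative values, with Usp18 (-1.59 ± 0.36, adjusted p = 0.0053), Irf7 (-1.29 ± 0.26, adjusted p = 0.0023) and Stat2 (-0.71 ± 0.20, adjusted p = 0.02) lower in Trif mutants and Irf9 at -0.43 ± 0.15 (adjusted p = 0.054). Of the Oas family Oas2 (-1.68), Oas3 (-1.46), Oas1a (-1.38) and Oasl2 (-1.11) were lower, and Oasl1 did not pass (-0.68). Mx1, which rose in both mutants against wild type, was lower in Trif mutants than in Tlr3 KO (-1.16 ± 0.27, adjusted p = 0.0064). Ifit2 (-1.36) was at 0.03 after normexp (adjusted p = 0.96). Trim30a gave 0.26 on the probe used and -0.94 on the other.

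After normexp 13 members were lower in Trif mutants than in Tlr3 KO, without Trif replicate 2 there were 15 and without Tlr3 KO replicate 3 there were 16. Of all features 1231, 3486 and 3404 were then called in either direction. Of the 25 calls 10 held in all 17 other settings. Oas2 did not pass without Tlr3 KO replicate 3 or Trif replicate 2 (adjusted p = 0.052 and 0.062). Oas3 was lost without Trif replicate 4 (0.052), Stat2 without Tlr3 KO replicate 1 (0.053) and Ddx58 without any 1 of 4 arrays (0.056 to 0.085). Beside these values, 2 of 5 B and plasma cell markers and 3 of 7 myeloid markers were lower and 2 of 4 plasmacytoid markers higher in Trif mutants; their part in the result was not tested.

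Trif mutants and Tlr4 KO differed in both directions. Of 41 members 11 were higher and 3 lower in Trif mutants, where 23.5% of all features were higher and 17.5% lower (41% in either direction), so fewer members were called than features in general. Zbp1 (-2.47 ± 0.33, adjusted p = 2.4e-05), Ifi44 (-2.21 ± 0.49, adjusted p = 0.0016) and Ifitm3 (-0.88 ± 0.29, adjusted p = 0.023) were lower. Samd9l (1.36 ± 0.27, adjusted p = 0.00074), Ifi27 (1.27 ± 0.15, adjusted p = 9e-06), Cmpk2 (1.23 ± 0.24, adjusted p = 0.00051), Ifit3, Trim30a, Ddx58, Rtp4, Sp100, Pml, Trim25 and Ifi35 were higher, the last 8 by 0.32 to 1.05. The Trif and Tlr4 arrays did not overlap for 9 members, 6 higher and 3 lower (35% of all features). The median difference was 0.05 (all features 0.13), and within slides it was 0.35, 0.33, -0.01 and -0.07. With sex as a covariate 5 members were higher and 3 lower, and Ifitm3 did not pass, and without Tlr4 KO replicate 2 there were 9 calls. Of all features 5692 and 7610 were then called. Of the 14 calls 6 held in all 17 other settings. Leaving out any 1 of 6 arrays ended the call of Sp100 (adjusted p = 0.063 to 0.14). The same held for 5 arrays with Rtp4 (0.078 to 0.13) and Trim25 (0.052 to 0.1), 4 with Ifitm3 (0.062 to 0.077) and 3 with Ifi35 (0.058 to 0.075). Beside these values, 4 of 8 leukocyte and T cell markers were higher and 1 lower in Trif mutants (median 0.72), 5 of 9 epithelial markers higher and 1 lower (median 0.32), 2 of 4 plasmacytoid markers higher (median 0.46), 3 of 5 B and plasma cell markers lower (median -1.54) and 3 of 7 myeloid markers lower and 1 higher (median -0.60); their part in the result was not tested.

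**Figure D5:**
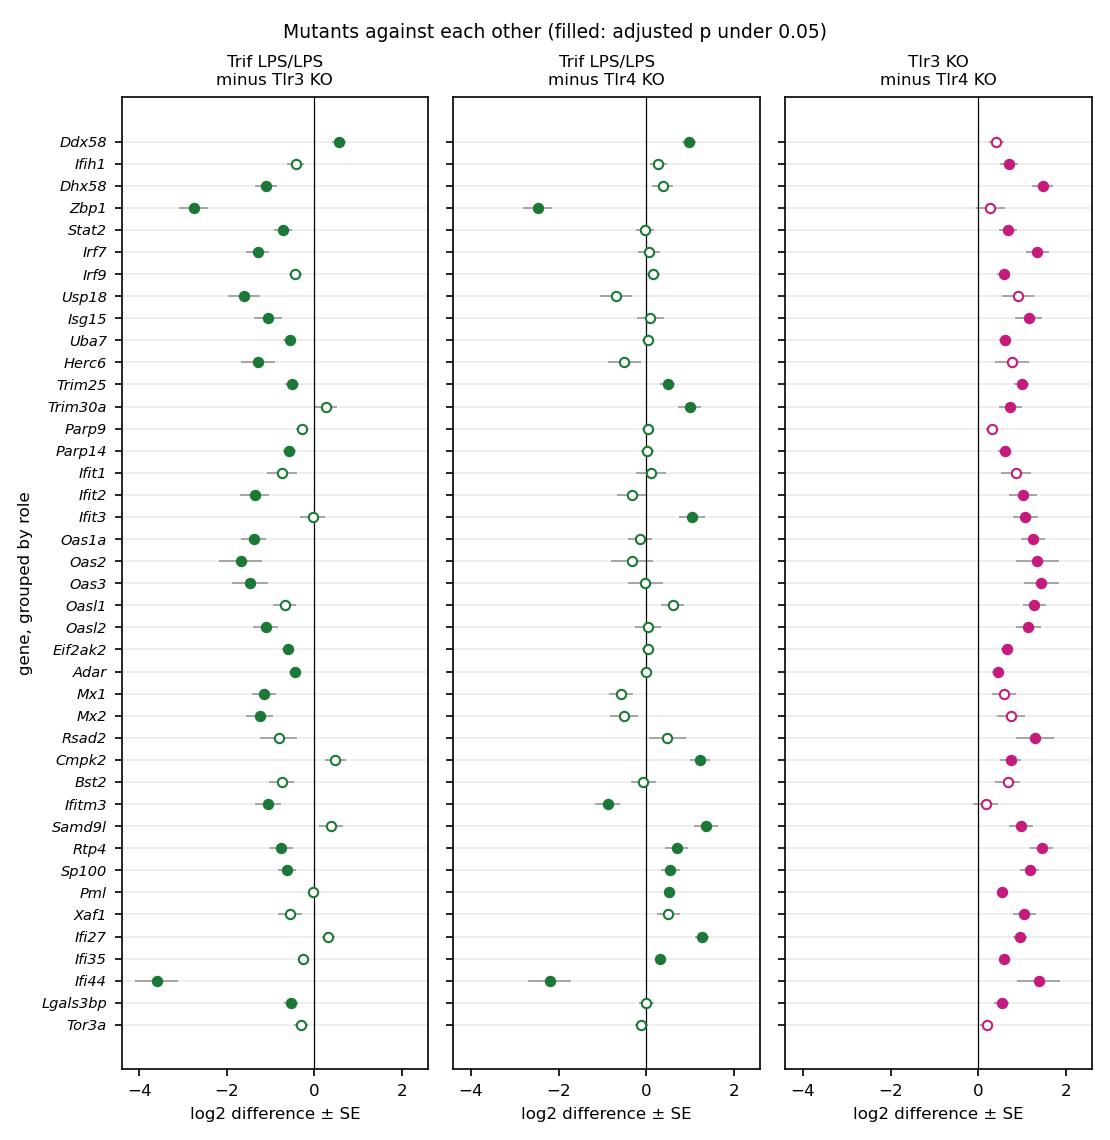
Difference in mean log2 signal (± SE, 4 mice per group) for the 41 members between Trif and Tlr3, Trif and Tlr4, and Tlr3 and Tlr4 mutants, filled where the adjusted p was under 0.05. All 41 Tlr3 minus Tlr4 values are above 0, and Ifi44 (-3.59) and Zbp1 (-2.75) are furthest from 0 in Trif minus Tlr3.

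Mx1 was the member that rose in 3 of the 4 comparisons with wild type. Its wild type arrays lay between -3.61 and -3.28, with replicate 4 the highest, and its call in Trif mutants held in 7 of 17 other settings. Tlr3 KO (mean -1.53 ± 0.22 SD) was followed by Tlr4 KO (-2.11 ± 0.24), Trif mutants (-2.69 ± 0.79), wild type (-3.42 ± 0.14) and MyD88 KO (-3.63 ± 0.23). Tlr3 and Tlr4 KO did not differ beyond the test (0.58 ± 0.27, adjusted p = 0.11), nor did wild type and MyD88 KO (-0.21 ± 0.27). The Trif arrays were spread from -3.52 to -1.64 and overlapped with both neighbours, and the second Mx1 probe gave 0.22 for Trif against wild type where the first gave 0.74. Mx1 is known to be disrupted in many laboratory strains, C57BL/6 among them.

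Over the 7 comparisons, in the fit without a block, 2 members, Parp9 and Tor3a, were called in none, and 5 (Trim25, Ifit2, Rtp4, Pml and Ifi27) in 5. Under the block followed for Tlr4 against wild type, Ifit2 (adjusted p = 0.056) and Ifi27 (0.085) lost that call. After normexp Ifit2 also lost its calls for Trif mutants against wild type and against Tlr3 KO. Tor3a nevertheless lay below wild type on every Trif array (-0.37 ± 0.16, adjusted p = 0.061; other probe 0.02).

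The interferon genes themselves were partly too dim to test. Of 17 listed interferon genes 11 had a probe and 8 were tested; Ifnb1, Ifne and Ifnk were each above background on 1 of 20 arrays. In MyD88 KO 6 of the 8 were higher (37.2% of all features were; 5 without wild type replicate 4), on arrays where the share of probes above background was also higher, led by Ifng (1.40 ± 0.53, adjusted p = 0.038) and Ifna2 (1.19 ± 0.19, adjusted p = 0.00017). In Trif mutants Ifng was lower (-1.50 ± 0.57, adjusted p = 0.044), with 1 of 4 Trif and 2 of 4 wild type arrays above background. Removal of outlier spots left fewer than 4 Trif values for Ifng, hence the larger SE than in MyD88 KO. Ifng did not pass without wild type replicate 4 (adjusted p = 0.13), and Ifna12 was at 0.33. Ifng was also lower in Trif mutants than in Tlr3 KO (-2.28; Ifna4, next, at -0.75, did not pass), and against Tlr4 KO Ifna9 was higher (0.46) while Ifng did not pass (-0.93). The interferon alpha genes are near-identical, so probes may share their signal.

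The receptors and Jak-Stat parts, 13 genes, carry the interferon signal to the induced genes. The shares of all features called, given above, were 44.3% (Trif), 38.6% (Tlr3), 12.7% (Tlr4) and 49.5% (MyD88) against wild type, and those of the 13 genes were 69.2%, 69.2%, 15.4% and 38.5%, the last below the share of all features. In Trif mutants 7 rose and 2 fell, with the receptor chains Ifngr2 (1.09 ± 0.15, adjusted p = 3.6e-05) and Ifnar2 (0.93 ± 0.17, adjusted p = 0.00028) changing most. In Tlr3 KO 9 rose and 0 fell, led by the type III receptor chains Ifnlr1 (0.75 ± 0.15, adjusted p = 0.00089) and Il10rb (0.67 ± 0.13, adjusted p = 0.00091). In Tlr4 KO 2 fell, the feedback inhibitor Socs3 (-1.003 ± 0.22, adjusted p = 0.0053) and Ifnlr1 (-0.67 ± 0.15, adjusted p = 0.0044). In MyD88 KO 5 fell and 0 rose, with Socs3 (-2.08 ± 0.22, adjusted p = 8.3e-06) and Jak2 (-0.93 ± 0.16, adjusted p = 0.00035) first. With wild type replicate 4 left out the counts were 7 up and 0 down, 7 and 0, 0 and 2, and 0 and 5 in the same order, and the genes named here passed. Between mutants, Trif against Tlr3 had 3 higher and 3 lower (Socs1 -1.21), Trif against Tlr4 8 higher and 1 lower (Ifnlr1 1.56, Ifnar2 1.43), and Tlr3 against Tlr4 9 higher (Ifnlr1 1.43, Socs1 0.92). The shares called were 46.2%, 69.2% and 69.2% in this order, against 20.2%, 41% and 30.7% of all features.

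Of 19 listed genes of nucleic acid sensing and interferon induction 16 were tested (Tlr4, Tlr7 and Ticam2 were too dim). Against wild type 25% of them were called in Trif mutants, 62.5% in Tlr3 KO, 6.25% in Tlr4 KO and 50% in MyD88 KO, so the share was below that of all features in Trif mutants and Tlr4 KO and level with it in MyD88 KO. Trif mutants had 2 rises and 2 falls, and the falls were the DNA sensor Cgas (-2.14 ± 0.32, adjusted p = 6.5e-05) and its partner Sting1 (-1.14 ± 0.17, adjusted p = 6.1e-05). Tlr3 KO had 8 rises and 2 falls, with the deleted Tlr3 and, rising, the kinase gene Ikbke (0.83 ± 0.15, adjusted p = 0.00045) first. In Tlr4 KO Ikbke rose (0.58 ± 0.15, adjusted p = 0.013) and Tlr9 did not pass (-0.42). MyD88 KO had 2 rises and 6 falls, with the targeted Myd88 and the kinase gene Tbk1 (-0.66 ± 0.14, adjusted p = 0.0012) first. With wild type replicate 4 left out there were 3 rises and 2 falls, 5 and 2, 1 and 0, and 2 and 5 in the same order. Sting1 then fell in Tlr3 KO (-0.68, adjusted p = 0.013) and MyD88 KO (-0.56, adjusted p = 0.027) as well as in Trif mutants, and did not pass in Tlr4 KO (-0.21). Cgas was also lower in Trif mutants than in Tlr3 KO (-1.40) and Tlr4 KO (-2.37, with Sting1 at -0.93), and lower in Tlr3 than in Tlr4 KO (-0.97).

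A further 26 interferon-stimulated genes outside the 42, 23 of them tested, were counted in the same way. In Trif mutants 9 fell and 3 rose (median -0.23), in Tlr3 KO 7 rose and 2 fell (0.39), in Tlr4 KO 1, Ddx60, fell and 0 rose (-0.10), and in MyD88 KO 10 fell and 2 rose (-0.36). The shares called, 52.2%, 39.1%, 4.35% and 52.2%, were near those of all features except in Tlr4 KO, where the share was lower. Leaving out wild type replicate 4, 9 fell and 5 rose in Trif mutants and the median turned to 0.14, 12 rose and 2 fell in Tlr3 KO (0.53), Ddx60 did not pass in Tlr4 KO (adjusted p = 0.17; median 0.03), and 4 fell and 2 rose in MyD88 KO (-0.27). Slfn5, a Schlafen family gene, had the largest value in Trif mutants (-2.93 ± 0.51, adjusted p = 0.00021), MyD88 KO (-2.11 ± 0.51, adjusted p = 0.0032) and Tlr4 KO, where it did not pass (-1.55 ± 0.51, adjusted p = 0.056), as Cxcl10 did not (-1.14). Ifitm2, the neighbour family member of Ifitm3, fell in Trif mutants (-2.19 ± 0.28, adjusted p = 1.9e-05) and in Tlr3 KO (-1.26 ± 0.28, adjusted p = 0.0025), where Apol9a rose (1.23). Apol9b fell in MyD88 KO (-1.83). Trif mutants had 0 higher and 11 lower against Tlr3 KO (Slfn5 -2.98, Ly6e -1.71) and 4 higher and 6 lower against Tlr4 KO (Ifitm2 -2.27, Ly6e -1.84). Tlr3 KO had 14 higher and 2 lower against Tlr4 KO (Cxcl10 1.62, Slfn5 1.60). The shares called between mutants were 47.8%, 43.5% and 69.6% in this order, against 20.2%, 41% and 30.7% of all features. For Trif against Tlr4 the share was thus near that of all features. In promoters, the same letters were found in 10 of the 22 of these genes with an entry (45.5%).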

How the data were processed

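Each sample is 1 Agilent array of 1 mouse (20 arrays, 5 genotypes of 4). The intensity used is the processed signal, linear and background-subtracted by Feature Extraction 10.7.3.1, per the file headers and the submitters' processing notes. The authors' deposited value table (intensity) equalled that signal times 1 factor per array, raised to a floor of 15. Control spots (1639 of 45018) and 67 to 210 outlier spots per array were left out, spots of a probe averaged as log2, and each array's 75th percentile subtracted. Probes well above background on at least 4 arrays (31576 of 41174) were kept, 1 per gene. Names were updated through RefSeq accessions (26682 probes matched, 3167 renamed; GRCm38.p6 for names and promoters); probe positions are mm9. The test was limma (version 3.58.1, R 4.3.3) on group means over 20 arrays (empirical Bayes, Benjamini-Hochberg, threshold 0.05) and tested on simulated data. The number of arrays limits the precision.

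Named with per-array values in each comparison with wild type were called members whose groups did not overlap, up to the 8 largest; named by change were other called members and the 2 largest of each other list with a call (1 such result is not reported here). Genes that set a range were also named, chosen after their values were seen. Members, lists and rules were chosen with earlier results of these data known. Same-numbered wild type, Trif, Tlr3 KO and Tlr4 KO arrays shared a slide. Deviations of same-numbered wild type and Tlr4 KO arrays correlated over features (0.346, 0.215, 0.188 and 0.167), so the block was followed for this pair. No other pair of groups had all values over 0.1, but Trif and wild type came close (0.319, 0.157, 0.201 and 0.098). Under the block 16 members and 10474 of all features were called for Trif against wild type. Alternatives: normexp (offset 50), quantile or median scaling, the deposited table, other filters, sex, the 2 genotypes alone, replicate or slide block, and each array left out (for lists other than the members, wild type replicate 4 alone, chosen after seeing the data).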

Additional observations from a re-analysis of the deposited data

Results flagged for a closer look

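In 15 of 210 groups of 4 arrays tested (each member, and the median over members, in each genotype) 1 array lay far from the other 3, with a gap, as a share of the group's range, past Dixon's critical value. Chance alone flags about 1 group in 20, and members of 1 array are not independent. Of the 15, 7 were wild type replicate 4, the highest of its group each time: its log2 level was 5.10 for Oasl2, 4.15 for Bst2, 5.07 for Rtp4, 6.35 for Lgals3bp, 3.33 for Ifit1, 2.20 for Ifit3 and 1.63 for Irf9. The next wild type array was at 2.67 for Bst2 and at 4.05 for Rtp4.

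In the Trif group, replicate 2 was the lowest for Ifit3 (1.84) and Rtp4 (3.26), and replicate 4 for Cmpk2 (1.94, the next array at 2.92). In the Tlr4 KO group, replicate 3 was the highest for Bst2 (2.76) and Pml (1.13), and replicate 4 for Ifi27 (3.98). In the Tlr3 KO group, replicate 2 was the lowest for Mx1 (-1.86), and replicate 4 for the median over the 41 members (0.34, the next array at 0.71).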

How the results depend on the processing

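Counts of called members fell under these settings. After normexp background correction they were 10 for Trif against wild type, 4 for Tlr3, 2 for Tlr4, 13 for Trif against Tlr3, 8 for Trif against Tlr4 and 15 for Tlr3 against Tlr4. Calls over all 21910 features fell too, to 5015, 2950, 672, 1231, 3656 and 1386 in the same order. In the main fit these were 9716, 8451, 2781, 4431, 8987 and 6726. For MyD88 against wild type normexp left 22 members, and 2838 of all features where the main fit had 10839. Ifit2 turned from -1.49 to 0.02 (Trif against wild type) and from -1.36 to 0.03 (Trif against Tlr3); the cause was not tested. Median scaling left 4 for Tlr3 against wild type (6991 of all features). With sex as a covariate there were 7 for Trif against wild type (5843 of all features) and 8 for Trif against Tlr4 (5692). For MyD88 against wild type there were 25, but sex coincides with genotype there and its term rests on the Trif and Tlr3 arrays. Fitting only the 2 genotypes compared, which uses fewer samples, left 9 for Trif and 2 for Tlr4 against wild type (8281 and 2732 of all features). With the replicate number as a block there were 4 for Tlr4 against wild type (2924 of all features). There were 18 for MyD88 against wild type (6516 of all features), a pair of groups whose numbers share nothing else. The block moved no other count by over 1.5 times. Normexp moved the median of all features to 0.522 (Trif against wild type).

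With 1 array left out in turn the counts ran from 9 to 17 (Trif against wild type), 5 to 19 (Tlr3), 2 to 13 (Tlr4), 23 to 32 (MyD88), 15 to 24 (Trif against Tlr3), 9 to 14 (Trif against Tlr4) and 16 to 36 (Tlr3 against Tlr4). Calls over all features moved as well. For Tlr3 against Tlr4 they were 3366 where 16 members were called and 5187 where 36 were. Of 2343 values of called members under another setting, 1878 kept direction and call, 463 kept direction only and the 2 for Ifit2 reversed; with the deposited table and the stricter filter 136 of 136 kept both.

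Scan day and scanner coincide with the MyD88 genotype, as does sex between MyD88 KO and wild type, and slide position with each other genotype. With slide as a random block 31 members fell in MyD88 KO, with 10852 of all features called in either direction. No slide held both MyD88 KO and wild type arrays, so this block cannot separate slide, scan day or scanner from genotype. All members were flagged well above background, while some interferon genes and sensors (Tlr4, Tlr7) were too dim to test. The flag does not show that dimness limits no member. Ifit2, with a mean of -4.56 in Trif mutants, lost its differences after normexp, and whether dimness plays a part was not tested.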
